A study of Mus musculus with 10 samples.

Results

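Genes that carry fatty acids into the muscle fibre and oxidise them in its mitochondria were followed across 3 generations of mice. The group was set by name as Cd36, Fabp3, Cpt1b, Cpt2, Hadha, Hadhb, Acadl, Acadm, Acaa2 and Etfdh, and each gene was read from the probe set that the platform annotation gives to it alone. Of these 10 genes 9 were measured, out of 19938 genes with a probe set of their own on the array. The probe set of Cpt1b, the muscle form of the enzyme that loads fatty acids onto carnitine, is also annotated to Gm44502 and was left out. Where a gene had several probe sets, the one with the highest mean was taken.

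The samples were gastrocnemius, the large calf muscle, from male C57BL/6 mice, and each of the 10 arrays held RNA pooled from 5 animals. F0 mice lived with voluntary exercise (EX) or a sedentary lifestyle (SED), were mated with partners of the same lifestyle, and were 28 weeks old. Their F1 sons and their F2 grandsons, the latter from matings of F1 littermates, never exercised and were 8 weeks old at collection. There was 1 pool for each F0 group and there were 2 for each ancestry in F1 and in F2. EX and SED therefore name the animal's own life in F0 and only its ancestry in F1 and F2. Nothing in the labels says whether both pools of a group came from separate animals, and p-values therefore cover pool-to-pool spread only, which may be technical.

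Long-chain fatty acids enter the fibre with the help of the membrane protein CD36 and are held in the cytosol by fatty acid binding protein (Fabp3). After activation to acyl-CoA they cross the inner mitochondrial membrane as carnitine esters, and Cpt2 turns them back into acyl-CoA there. Each round of beta-oxidation then begins with an acyl-CoA dehydrogenase (Acadl for long and Acadm for medium chains). Later steps are carried out by the trifunctional protein made of Hadha and Hadhb subunits and by other enzymes, among them the thiolase Acaa2. Electrons taken up by the dehydrogenases pass through electron transfer flavoprotein to Etfdh, which hands them to ubiquinone. Endurance exercise is known to raise the capacity of skeletal muscle for this pathway.

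Upstream sequences were read from RefSeq (GRCm38.p6), and the promoter table used here held 8 of the 10 genes. Sequences are shown for Hadha and Hadhb, whose products form 1 complex, and for Cd36, Etfdh and Fabp3, which had the largest and the smallest F0 difference, so that they were chosen after values were seen. The search for AGGNCA was also added then. Hadha and Hadhb lie head to head on chromosome 5 with 272 bases between their starts, so that much of the upstream sequence of one is also that of the other. The stretch that lies within 250 bases of both starts has 228 bases and a GC content of 57% with 15 CpG. It spans chr5:30155003-30155230 and is given on the plus strand, the strand of Hadhb. The other 3 stretches are the 100 bases before the annotated start, on the strand of the gene. They span chr5:17835897-17835996 (minus strand) for Cd36, chr3:79628768-79628867 (minus) for Etfdh and chr4:130308638-130308737 (plus) for Fabp3. Capitals mark a match to AGGNCA, the core site of nuclear receptors such as the PPARs, on either strand.

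Hadha and Hadhb: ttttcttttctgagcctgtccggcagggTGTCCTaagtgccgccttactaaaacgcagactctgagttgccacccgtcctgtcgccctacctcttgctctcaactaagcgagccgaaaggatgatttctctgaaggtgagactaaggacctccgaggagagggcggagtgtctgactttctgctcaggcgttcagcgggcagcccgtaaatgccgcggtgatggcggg
Cd36: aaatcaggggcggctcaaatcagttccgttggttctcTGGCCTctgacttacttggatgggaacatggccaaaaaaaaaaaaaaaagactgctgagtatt
Etfdh: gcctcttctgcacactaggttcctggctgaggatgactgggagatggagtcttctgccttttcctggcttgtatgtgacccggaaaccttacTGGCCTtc
Fabp3: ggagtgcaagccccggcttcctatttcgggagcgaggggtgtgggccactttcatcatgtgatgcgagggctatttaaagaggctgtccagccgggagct

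The single match in the Hadha and Hadhb stretch ran from position -56 to -51 relative to the Hadha start and from -222 to -217 relative to the Hadhb start. At least 1 AGGNCA was found in 7 of the 8 genes, and in 57.2% of 32851 promoter windows of 300 bases. The gene without a match was Acadl, and the match of Fabp3, from -195 to -190, lies outside the 100 bases shown. A direct repeat of AGGNCA with 1 base between the copies, the layout bound by PPAR with RXR, was found in 0 of the 8 and in 0.381% of all windows. TCAAGGTCA, the longer site of the oestrogen-related receptors, was found in 0 of the 8 and in 0.423%. Both motifs were searched on both strands over the same windows, which start 250 bases before each gene start, and both contain AGGNCA itself. GC content over the 250 bases before the start was 43.2% for Cd36, with 3 CpG, and lay between 54.4% (Etfdh) and 68% (Acadl) for the others, with 9 to 25 CpG.

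The fibre markers Acta1, Ckm, Mylpf, Tnnt3, Pygm and Myh4 all passed the filter on low signals (6 of 6). A pair of arrays stood apart. F0 SED and F1 EX pool 1 had a median correlation with the other arrays of 0.974 and 0.979 across 11963 genes, against 0.986 to 0.993 for the rest. Their signals were also spread less, with an interquartile range over all probe sets of 3.06 and 3.11 against 3.25 to 3.34. The summed linear signal of the 6 fibre markers was 39966 and 42268 in these arrays, against 48069 to 52349 in the other 8 arrays. What part this has in the values of the fatty acid genes was not tested. The comparison of the F0 pools rests on F0 SED and has no version without it. For the group set by name, limma results that rest on either array are also given without it. These are medians, counts or values of single genes, some only as a range over fits that leave out 1 pool at a time. Limma calls of single genes outside that group, such as Gpihbp1, Pecam1 and Cdh5, are given only with both arrays. In RNA of whole muscle, fewer cells of a type and less RNA per cell cannot be told apart.

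The first comparison set exercised against sedentary F0 animals, which had themselves lived under the regimes. All 9 genes were higher in the exercised pool, by 0.20 to 1.12 on the log2 scale. The arrays as a whole leaned the same way. Over 11963 genes the median difference was 0.08, with 1835 higher and 644 lower by at least 0.5. Cd36, Etfdh and Hadha were more than 2-fold higher, while Fabp3, Acadm and Acadl had the smallest differences. With 1 pool a group there is no replicate check and no test.

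Among genes of uptake and binding, Cd36 reached a log2 signal of 9.80 in F0 EX but 8.68 in F0 SED. In the descendants it was 8.73 and 9.47 in F1 EX, 9.67 and 9.47 in F1 SED, 9.74 and 9.56 in F2 EX, and 9.71 and 9.55 in F2 SED. F0 EX was thus the highest and F0 SED the lowest of the 10 arrays, with F1 EX pool 1 beside F0 SED. The F0 difference of 1.12 is 2.17-fold. Fabp3, by contrast, had 10.13 in F0 EX and 9.93 in F0 SED, a difference of 0.20. Its descendant values were 10.49 and 9.98 in F1 EX, 10.21 and 10.05 in F1 SED, 10.22 and 10.42 in F2 EX, and 10.06 and 10.11 in F2 SED, and F0 EX lay among them and F0 SED below them. The second probe set of Fabp3 differed by 0.34 between the F0 pools.

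**Figure D1:**
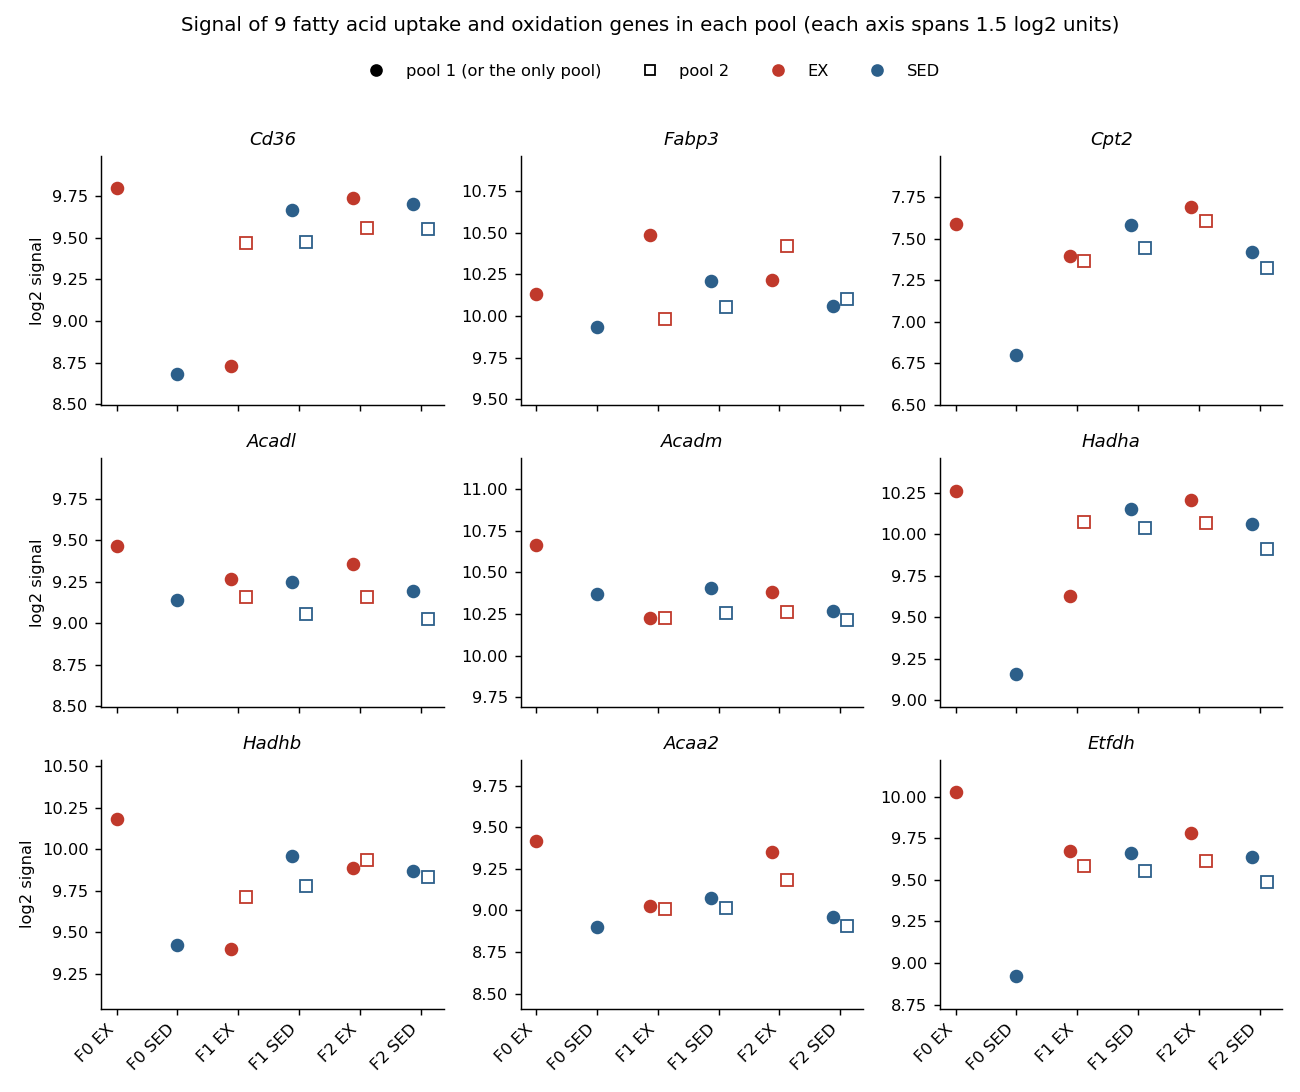
Log2 signal (vertical axis, 1.5 log2 units in every panel) of each of the 9 genes in each pool, by generation and by exercised (EX, red) or sedentary (SED, blue) life or ancestry. F0 EX is the highest point for 7 genes, F0 SED the lowest for 6, and F1 EX pool 1 sits beside or below F0 SED for Cd36 and Hadhb.

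In the carnitine shuttle, Cpt2 had 7.59 in F0 EX and 6.80 in F0 SED, which is 1.73-fold. The 8 descendant pools ran from 7.33 to 7.69 with a median of 7.43. F0 EX lay within that range and F0 SED below it.

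Both genes of the trifunctional protein were higher in F0 EX. Hadha had 10.26 in F0 EX and 9.16 in F0 SED, and Hadhb 10.18 and 9.42, differences of 1.10 and 0.76. In F1 EX the pools had 9.63 and 10.08 for Hadha and 9.40 and 9.71 for Hadhb. F1 SED had 10.15 and 10.04 for Hadha, F2 EX 10.21 and 10.07, and F2 SED 10.06 and 9.91. For Hadhb the same groups had 9.96 and 9.78, 9.89 and 9.94, and 9.87 and 9.83. For both genes F0 EX was the highest array, and F0 SED and F1 EX pool 1 were the lowest. A second probe set of Hadhb gave 0.92 between the F0 pools.

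The other enzymes of the spiral differed less. The thiolase Acaa2 reached 9.42 in F0 EX but 8.90 in F0 SED, with 8.91 to 9.35 in the descendants (median 9.02). Acadl had 9.47 and 9.14 against 9.03 to 9.36 (median 9.18), and Acadm 10.67 and 10.37 against 10.21 to 10.40 (median 10.26). F0 EX was above every descendant pool for all 3 genes, whereas F0 SED was below them for Acaa2 alone, and there the lowest descendant pool was at 8.91.

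Etfdh, where electrons from all acyl-CoA dehydrogenases meet the respiratory chain, had 10.03 in F0 EX and 8.92 in F0 SED. Its descendant values were 9.68 and 9.59 in F1 EX, 9.66 and 9.55 in F1 SED, 9.78 and 9.62 in F2 EX, and 9.64 and 9.49 in F2 SED. These 8 values had a mean of 9.62 ± 0.09 (SD, n = 8), and F0 EX deviated from it by 0.40 and F0 SED by -0.70. Unlike Cd36 and Hadha, Etfdh was not low in F1 EX pool 1. The F0 difference of 1.11 is 2.16-fold.

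Of the 9 genes, 6 had an F0 difference of 0.5 or more in favour of exercise, against 15.3% of the 11963 genes kept after a filter on low signals. The median difference of the 9 genes was 0.76, against 0.08 over all genes. The 9 genes had high signals, with means above those of 82.6% (Cpt2) to 98.5% (Acadm) of the genes kept. Among genes past a filter at the 60th percentile, 20.2% reached the bound and the median was 0.15. F0 EX lay above all 8 descendant pools for 7 genes (21.8% of all genes), and F0 SED below all 8 for 6 genes (29.5%). Both held at once for Cd36, Hadha, Acaa2 and Etfdh, 4 of 9 genes against 6.3% of all. For 8 genes, all but Fabp3, the F0 difference exceeded the largest difference between 2 pools of a descendant group, as it did for 27.3% of all genes. With quantile normalization this held for 6 genes, no longer for Acadl and Acadm, and for 20.1% of all genes. For Etfdh that largest difference was 0.16, for Cpt2 0.14, for Hadha 0.45 and for Cd36 0.74, the last 2 both within F1 EX.

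The values depend on how the arrays are scaled. With quantile normalization, which gives every array the same spread, the median difference of the 9 genes was 0.47 and that of all genes 0.01, and 4 of the 9 genes reached 0.5. Cd36 was then 0.92 higher, Etfdh 0.88, Hadha 0.86 and Cpt2 0.60, but Acadl only 0.09 and Acadm 0.03, and Fabp3 was at -0.06. Centring each array on the median of all probe sets gave a median of 0.91, and on that of the kept genes 0.64, with all genes at 0.22 and -0.04. Over all genes 1835 were higher and 644 lower by the same bound as deposited, 1280 and 927 after quantile normalization, 2932 and 305 after centring on all probe sets, and 1197 and 1162 after centring on kept genes.

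**Figure D2:**
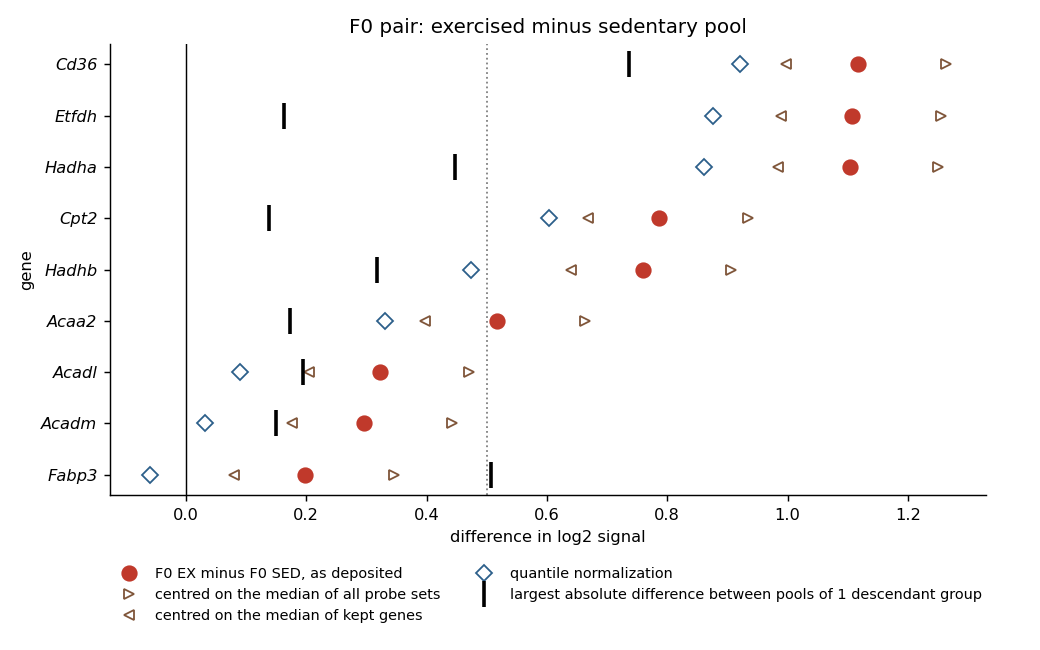
F0 EX minus F0 SED in log2 signal (horizontal axis) for each gene as deposited (red) and under 3 other scalings (open symbols), with the largest absolute difference between the pools of a descendant group as a black bar. Cd36, Etfdh, Hadha and Cpt2 stay above 0.5 under every scaling shown, while Fabp3 as deposited, and Acadl and Acadm at 0.09 and 0.03 with quantile normalization, lie below their black bars.

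Other genes of fatty acid use, 48 in number and taken by role rather than by value, differed less between the F0 pools. Of these 45 were kept, Acad10 was below the filter, and the rest were not analysed here. The 45 had a median of 0.17, against 0.08 over all genes, and 34 were above 0. By at least 0.5, 10 were higher and 1 lower, while 15.3% of all genes were higher and 644 of 11963 lower. With quantile normalization the median was -0.02 and only 21 of the 45 were above 0. Then 7 were higher and 3 lower by that bound, while 10.7% of all genes were higher and 927 of 11963 lower.

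The carnitine shuttle stood highest among the roles, with a median of 0.64 over 4 genes. Slc22a5, which takes carnitine into the cell, was 1.09 higher in F0 EX and Slc25a20, which swaps acylcarnitine for carnitine across the inner membrane, 0.79. Crat, which buffers short acyl groups on carnitine, was 0.50 higher and the liver isoform Cpt1a 0.17. Enzymes for unsaturated and branched chains followed, with a median of 0.48 over 6 genes, from Acadsb at 1.18 and Eci2 at 0.81 to Ivd at 0.40 and Ech1 at -0.33.

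Enzymes of the main spiral outside the named group had a median of 0.00 over 6 genes, from Hadh at 0.25 and Acadvl at 0.16 to Acad11 at -0.32 and Acads at -0.58. Acadvl and Acads act on very long and on short chains, either side of Acadl and Acadm. Etfa, the alpha subunit of electron transfer flavoprotein, was 0.49 higher and Etfb, its partner, differed by -0.13.

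Among genes of supply, Lpl, which frees fatty acids from circulating lipoproteins, was 0.71 higher and Fabp4 0.48, while Slc27a1 was at 0.15 and Gpihbp1 at -0.12. For activation, the acyl-CoA synthetase Acsl6 was at 0.09 and the acyl-CoA binding protein Dbi at 0.23. Among regulators of flux, Pdk4, which spares glucose by holding back pyruvate dehydrogenase, was 1.02 higher and the mitochondrial thioesterase Acot2 0.93, with Mlycd at 0.05 and Ucp3 at -0.17. Of the lipid store genes, the triglyceride lipase Pnpla2 was 0.54 higher and Plin2 0.41, with Plin5 at 0.14 and Mgll at -0.07. Of 8 transcription factors and coactivators 1 was higher by at least 0.5, Ppargc1a at 0.76. Ppara was at 0.15, Esrra at -0.09 and Pparg at -0.34.

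**Figure D3:**
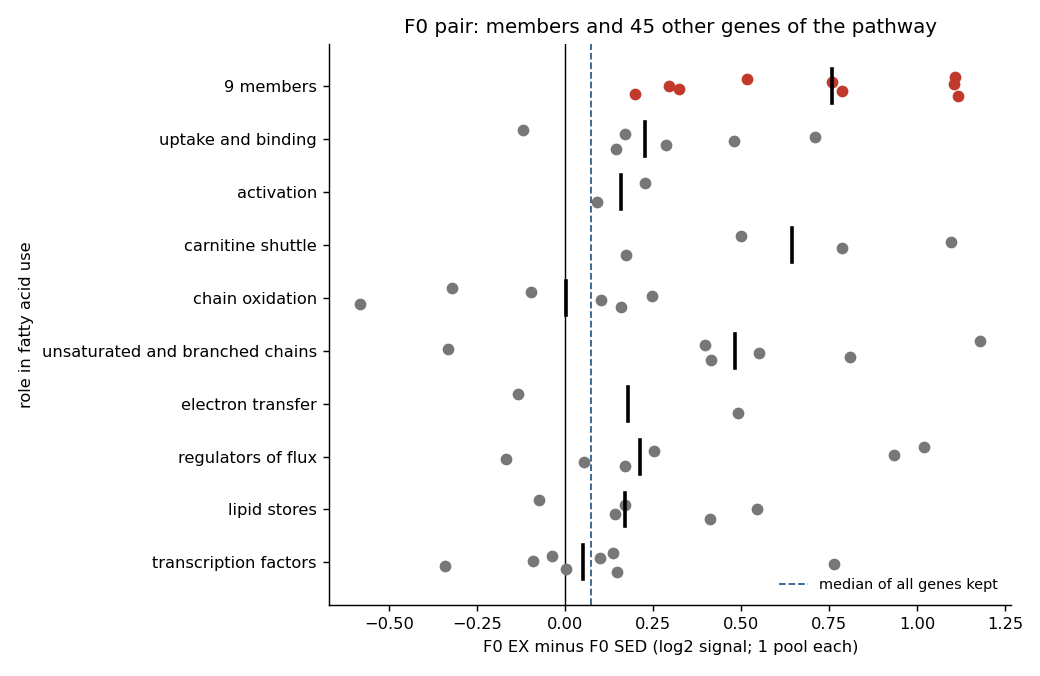
F0 EX minus F0 SED in log2 signal (horizontal axis) for the 9 genes (members, red) and for 45 other genes of fatty acid use by role (grey), with black bars at the medians and a dashed line at the median of all genes kept (0.08). The members have a median of 0.76, the carnitine shuttle genes 0.64 and the other genes of chain oxidation 0.00.

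Cd36 is also made by adipocytes, capillary endothelium and macrophages, and the markers of these cells were set beside it. Summed linear signals in the exercised and the sedentary F0 pool were 211 and 215 for 5 adipocyte markers, 883 and 734 for 8 endothelial markers, and 427 and 324 for 6 macrophage markers. The slow fibre markers, whose fibres use more fat, summed to 2910 and 1976, and 6 of 6 were higher in F0 EX. So were 5 of 6 fibre, 6 of 8 endothelial and 5 of 6 macrophage markers. Of kept adipocyte, heart and keratinocyte markers, 2 of 4, 1 of 2 and 0 of 3 were higher. Keratinocyte markers, foreign to muscle, summed to 69.0 and 139.7 in these pools against 31.4 to 45.7 in descendants. Of 4 heart markers Nppa and Myl7 were below the filter and Myh6 and Myl4 were kept. All 4 together summed to 115 and 114 in the F0 pools and to 119 to 150 in descendants. The part of these cell types in the F0 differences was not tested.

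F0 pools were next set against the 8 descendant pools. A limma model of generation and ancestry on all 10 arrays called 0 of the 9 genes, and 0 had an unadjusted p under 0.05, while 2.33% of all genes were called. F0 minus descendants ranged from -0.31 for Hadha (95% interval -0.78 to 0.17) to 0.24 for Acadm (-0.01 to 0.48), with a median of -0.15 against -0.02 over all genes. These averages join an F0 EX pool at the top with an F0 SED pool at the bottom. With F0 SED alone as F0, a fit that takes its spread from the other groups, limma called 4 of the 9 genes and 10.3% of all genes. They were Cd36 (-0.92, adjusted p = 0.0485), Cpt2 (-0.64, 0.0341), Hadha (-0.88, 0.0216) and Etfdh (-0.67, 0.0178), all lower. With F0 EX alone as F0 it called 0 of the 9 and 0.719% of all genes, with a median of 0.27. Without F0 SED and F1 EX pool 1 together the median was 0.24, and 0 of the 9 were called. Age, generation and the F0 animals' own exposure cannot be told apart in this comparison.

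Of the 45 other genes of the pathway, 1 passed in that model, a share near the 2.33% of all genes. Gpihbp1, which holds lipoprotein lipase on the capillary wall, had 4.72 and 4.84 in the exercised and sedentary F0 pools against 5.12 to 5.40 in the descendants, and fell by 0.50 in F0 (SE 0.10, limma adjusted p = 0.0268). The endothelial markers Pecam1 and Cdh5 fell as well, by 0.71 and 0.62 (adjusted p = 0.0134 and 0.0268). The 8 endothelial markers summed to 883 and 734 in F0 and to 1035 to 1141 in descendants. Their part in the Gpihbp1 value was not tested.

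In F1, the question was whether sons of exercised parents differed from sons of sedentary parents. Estimates for EX minus SED were below 0 for 6 of the 9 genes and above 0 for 3, against 48.9% of all genes above 0. Cd36 was at -0.47 (95% interval -0.95 to 0.01), Hadhb at -0.32 (-0.63 to 0.00) and Hadha at -0.24 (-0.60 to 0.12). Both F1 EX pools were below both F1 SED pools for Cd36, Cpt2, Acadm and Hadhb, 4 of 9 genes against 16.6% of all. For Cd36 the nearest pools were almost level, at 9.4665 (F1 EX pool 2) and 9.4735 (F1 SED pool 2). No gene passed (limma adjusted p from 0.804 to 0.974 for the 9 genes), 0% of all genes were called, and 0 of the 9 and 584 of all genes had an unadjusted p under 0.05. Array weights or trend and robust settings also called 0.

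The F1 estimates of Cd36, Hadha and Hadhb moved toward 0 when F1 EX pool 1 was left out, and that of Fabp3 from 0.10 to -0.15. F1 EX pool 1 was the lowest descendant array for these 3 genes, and 24.8% of all genes had their lowest descendant value there. Its deviations from the mean of the other 7 pools were -0.87, -0.44 and -0.46, and those pools had SDs of 0.11, 0.09 and 0.09 (n = 7). Without that pool the F1 estimates were -0.10 for Cd36, -0.02 for Hadha and -0.16 for Hadhb. For Hadhb, F1 EX pool 2 was also below both F1 SED pools. Pool 2 lay below them for 6 of the 9 genes and for 38.6% of all genes. A further fit left out pool 2 instead and kept F1 EX pool 1. With that pool as the lone F1 EX pool, limma called Cd36 (-0.84, adjusted p = 0.0228) and none of the other 8, with 8.74% of all genes called.

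The 9 genes did not share 1 pattern in that pool. Fabp3 was 0.34 above the mean of the other 7 pools and the highest of the 10 arrays, and Acadl and Etfdh were 0.10 and 0.06 above it. Cpt2, Acadm and Acaa2 deviated by -0.10, -0.06 and -0.04. In F0 SED the deviations from the same 7 pools were -0.91 for Cd36, -0.92 for Hadha, -0.70 for Etfdh, -0.69 for Cpt2 and -0.43 for Hadhb, with Acadm 0.08 above the mean. Etfdh and Cpt2 were thus far down in F0 SED and near the rest in F1 EX pool 1. Of the 45 other pathway genes, 9 had their lowest descendant value in F1 EX pool 1 and 18 their highest, against 24.8% and 29.9% of all genes. Of the 9 genes, Fabp3 alone was highest there.

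**Figure D4:**
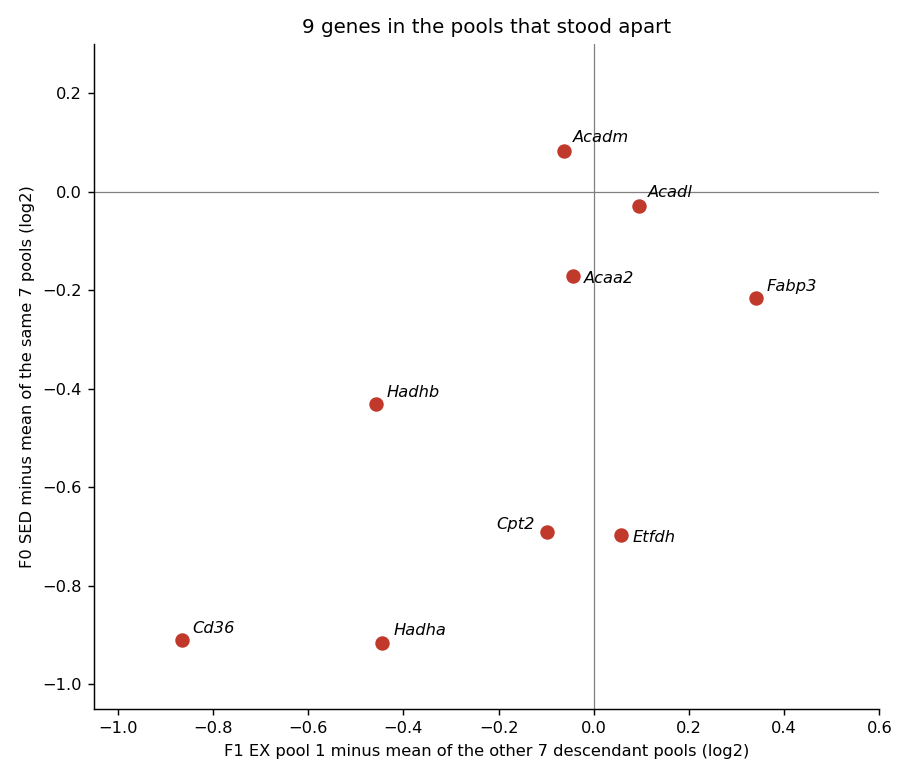
Each of the 9 genes by its deviation in F1 EX pool 1 (horizontal axis) and in F0 SED (vertical axis) from the mean of the other 7 descendant pools, in log2 units. Cd36, Hadha and Hadhb are low in both arrays, Etfdh and Cpt2 in F0 SED only, and Fabp3 is high in F1 EX pool 1.

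Markers of cells that also make Cd36 were read in F1. Those of adipocytes summed to 132 and 146 in the F1 EX pools and to 239 and 198 in the F1 SED pools, while the endothelial markers summed to 1093 and 1076 against 1075 and 1035. The macrophage markers summed to 429 and 418 against 476 and 499. Whether adipocytes have a part in the Cd36 values was not tested.

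In F2, the grandsons, all 9 estimates for EX minus SED were above 0, as were 60.7% of all genes. Acaa2 had pools of 9.35 and 9.18 in F2 EX and 8.96 and 8.91 in F2 SED, a difference of 0.33 (95% interval 0.06 to 0.61). Cpt2 had 7.69 and 7.61 against 7.42 and 7.33, a difference of 0.28 (0.01 to 0.55). F2 EX pools lay above both F2 SED pools for these genes and for Fabp3, Hadha and Hadhb, 5 of 9 against 25.8% of all genes. For Hadha the nearest pools were almost level, at 10.0659 (F2 EX pool 2) and 10.0642 (F2 SED pool 1). The median over the 9 genes was 0.15, against 0.04 over all. No gene passed (limma adjusted p = 1.00 for all 9), with 0% of all genes called. Of the 9 genes 2, Acaa2 and Cpt2, were under 0.05 before adjustment in limma, as were 532 of all genes. The slow fibre markers summed to 2995 and 3000 in F2 EX and to 2240 and 2613 in F2 SED, and their part was not tested. Centring on the median of all probe sets gave a median of 0.21 for the 9 genes, and quantile normalization put Cd36 at -0.01.

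**Figure D5:**
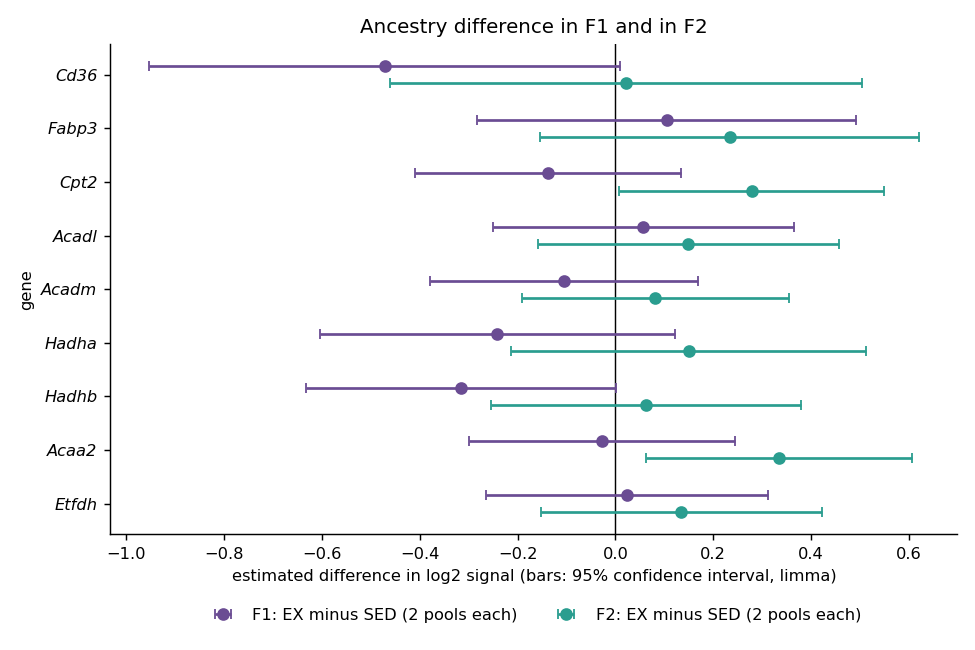
Estimated EX minus SED difference in log2 signal (horizontal axis) in F1 (purple) and F2 (green) for each gene, with 95% confidence intervals from limma. The F2 intervals of Acaa2 and Cpt2 lie above 0 before adjustment, and those of the other 7 genes and all F1 intervals include 0.

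Ancestry differences of opposite direction in F1 and F2, with no overlap of pools in either, were found for 2 of the 9 genes, Cpt2 and Hadhb, and for 5.91% of all genes. The ancestry effect in F2 minus that in F1 was above 0 for all 9 genes, with a median of 0.36 against 0.04 over all genes, 56.2% of which were above 0. It was largest for Cd36 (0.49, 95% interval -0.19 to 1.18), Cpt2 (0.42, 0.03 to 0.80) and Hadha (0.39, -0.12 to 0.91). Without F1 EX pool 1 the median was 0.19 and Cd36 was at 0.13, while Cpt2 was at 0.43. No gene passed (limma adjusted p from 0.919 to 0.964), with 0% of all genes called. Before adjustment Cpt2 alone among the 9 was under 0.05 in limma, with 519 of all genes.

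Over both generations of descendants, the additive limma model gave EX minus SED estimates from -0.22 for Cd36 (95% interval -0.59 to 0.14) to 0.17 for Fabp3 (-0.09 to 0.43). With 1 pool at a time left out, Cd36 ran from -0.32 to -0.028 and Fabp3 from 0.081 to 0.28. Of all genes 53.3% were above 0, as were 5 of the 9, whose median was 0.07. None was called (adjusted p from 0.888 to 0.988), 0% of all genes were called, and 0 of the 9 and 597 of all genes had an unadjusted p under 0.05. The intervals of the 9 genes reached a median of 0.23 either side of the estimate. Of the 45 other pathway genes 0 passed, and their median was 0.04.

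F2 and F1 animals, which were of the same age, were compared as well. Cd36 had the largest estimate for F2 minus F1, 0.31 (95% interval -0.06 to 0.67), and it was 0.11 without F1 EX pool 1. Hadhb had 0.17 (-0.08 to 0.41), and the other 7 genes had 0.00 to 0.09. None was called by limma (adjusted p from 0.911 to 1.00), 0% of all genes were called, and 0 of the 9 and 509 of all genes had an unadjusted p under 0.05. Other eBayes settings (trend and robust) passed 2 of all genes and array weights 1, with 0 of the 9 in either. The comparisons of descendants share their arrays and are not independent of each other.

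The genes whose profile over the 10 arrays was most like the mean profile of the 9 were Cog5, Map2k5, Clpb, Shoc2 and Mybpc1. They were taken from 5548 kept genes outside the pathway lists that varied at least as much, by the root mean square distance between profiles centred on their means. The distances were 0.05 to 0.06 on the log2 scale. Without F0 SED and F1 EX pool 1, none of these was among the nearest 5, which were B3galt1, Hdhd2, Cul2, Eapp and Trmt1. Of 7298 candidates, Clpb then ranked 26, Map2k5 36, Cog5 39 and Shoc2 107, while Mybpc1 varied too little to be a candidate. The mean profile itself ran from -0.41 in F0 SED to 0.28 in F0 EX, with 0.18 and 0.09 in F2 EX and -0.13 and -0.05 in F1 EX. Mybpc1, the slow isoform of myosin binding protein C, was at -0.50 in F0 SED and 0.19 in F0 EX.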

How the data were processed

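The authors deposited signals of 35557 probe sets on 10 arrays, with values from 0.966 to 14.2. Their range fits a log2 scale, on which they were used as deposited. Affymetrix Expression Console was used, per the submitters' processing notes. Its version and its background, normalization and summarization steps were not given in the sources used here. No detection calls were used, and precision is limited by how few arrays there are.

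GEO's annotation of the platform, possibly old, gave 1 gene symbol to 21789 probe sets, several to 1621 and none to 12147. Only the first kind named genes. Of 19938 genes, 19856 matched RefSeq GRCm38.p6 and 0 symbols changed. The filter on low signals kept the 11963 genes whose mean reached the 40th percentile (3.235 on the log2 scale).

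Tests used lmFit and eBayes of limma 3.58.1 (R 4.3.3), p-values adjusted by Benjamini and Hochberg's method across all 11963 genes, and 0.05 as threshold. A fit of the 4 descendant groups gave F1, F2 and F2 minus F1 ancestry effects. Additive fits gave ancestry and F2 against F1 (8 arrays) and F0 against descendants (10 arrays). A fit with a lone pool in a group assumes that it varies like the rest. The F0 pair was described by size, with a bound of 0.5. The scripts were tested on simulated data. All 9 measured genes are named, and pathway genes that passed or were among the highest and lowest 2 of their role in the F0 pair. The genes, lists and rules were chosen with earlier results of these data known. Alternatives were other scalings, filters, probe set rules, eBayes settings, array weights, a pool block and leaving out pools. Marker sums include genes below the filter, and Cfd was not analysed here.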

Additional observations from a re-analysis of the deposited data

Results flagged for a closer look

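A sample far from the others was looked for in 5 sets of descendant arrays for each of the 9 genes (45 sets in all), by the gap to the nearest array over the range of the set. Such a gap passes in about 1 of 20 sets by chance. Of the 45 sets, which overlap within a gene, 2 passed, a number near that share. F1 EX pool 1 was far from the rest for Cd36 in the 8 descendants, at 8.73 with the nearest pool at 9.47 (gap over range 0.727). It was also far for Hadhb, at 9.40 with the nearest at 9.71 (0.564).

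The ancestry difference ran in opposite directions in F1 and F2, with no overlap of pools in either generation, for Cpt2 and Hadhb, 2 of the 9 genes, as for 5.91% of all genes. For Cpt2 EX minus SED was -0.14 in F1 and 0.28 in F2, a difference of 0.416, and for Hadhb it was -0.32 and 0.06, a difference of 0.378. The test of the difference itself passed for neither (limma adjusted p = 0.919 for both).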

How the results depend on the processing

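Over 999 combinations of gene, comparison and setting, 912 were counted as the same. In the tested comparisons this meant the same direction and side of the threshold, and in the F0 pair a shift under the SD between pools. Of the rest, 64 changed direction in a tested comparison, 18 moved and 5 were newly past the threshold. Many of the 912 could not change direction, because filters, eBayes settings or pools of the other generation leave an F1 or F2 ancestry estimate as it is. The 18 are untested values of the F0 pair and include 1 that changed sign, Fabp3 at -0.06 with quantile normalization. The causes were not tested. The pool numbers were not shown to pair samples, and a fit with the pool number as a replicate block changed no call (Cd36 between F2 and F1 ancestry effects 0.49, limma adjusted p = 0.927). Centring on kept genes and leaving out 2 pools together were chosen after seeing the data.

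Centring on all probe sets gave medians of 0.21 (F2), 0.45 (F2 minus F1 effect) and 0.91 (F0 pair), Etfdh at -0.0076 in F1 and Acadm at 0.0028 over both generations. Quantile normalization gave medians of 0.27 (F2 minus F1 effect) and 0.47 (F0 pair), Acaa2 at 0.020 in F1, Cd36 at -0.0058 in F2 and Acadl at -0.010 for the effects' difference. For F2 against F1 it gave Fabp3 at -0.019, Acadl at -0.035, Acadm at -0.0046 and Etfdh at -0.026. Centring on kept genes gave medians of 0.30 and 0.64, Cd36 at -0.029 in F2, and Acadl at -0.0072 and Acadm at -0.0033 for F2 against F1. Array weights gave Acadm 0.012 and Hadha 0.050 over both generations, Acadm -0.0045 and Hadha -0.00050 with 1 gene called for F2 against F1, and Hadhb -0.034 with 38 genes called for F0. Trend and robust settings called 2 genes for F2 against F1. Including the F0 pair in ancestry gave a median of 0.18, with Cd36 0.043, Acadm 0.050, Hadha 0.18 and Hadhb 0.050. The mean of probe sets put Hadhb at -0.020 for F0.

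Leaving out 1 pool at a time, F1 ancestry had 0 to 1046 genes called, 0 to 1 of the 9, and a median of -0.18 to -0.030 (Fabp3 -0.15 to 0.36, Acadl -0.039 to 0.15, Acaa2 -0.058 to 0.0028, Etfdh -0.032 to 0.080). The F2 median was 0.065 to 0.22 (Cd36 -0.070 to 0.11). The effects' difference had 0 to 143 genes called and a median of 0.19 to 0.39 (Fabp3 -0.12 to 0.38, Acadl -0.0056 to 0.19). Over both generations the median was 0.011 to 0.11 (Acadm -0.055 to 0.037, Hadha -0.12 to 0.083). F2 against F1 gave Fabp3 -0.098 to 0.11, Acadl -0.047 to 0.049, Acadm -0.038 to 0.053, Hadha -0.040 to 0.16, Acaa2 -0.0021 to 0.12 and Etfdh -0.032 to 0.053. F0 against descendants had 86 to 1231 genes called, 0 to 4 of the 9, and a median of -0.44 to 0.27 (Cd36 -0.92 to 0.43, Cpt2 -0.64 to 0.072, Hadha -0.88 to 0.27, Hadhb -0.44 to 0.45, Acaa2 -0.089 to 0.27, Etfdh -0.67 to 0.36). Without F0 SED and F1 EX pool 1 together it had 170 genes called and a median of 0.24, with Cd36 0.23, Cpt2 0.037, Hadha 0.14 and Etfdh 0.37.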
